A study of Homo sapiens with 6 samples.

Results

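EEF1A1 and EEF1A2 encode the 2 forms of translation elongation factor eEF1A, and they were described here together with the other genes of the elongation machinery EEF1B2, EEF1D, EEF1G, EEF2 and EEF2K. These 7 genes were taken by symbol from the 64253 genes of the count tables, and 6 of them had enough reads to be tested. They were picked because their difference between the groups, and the share of EEF1A2 in the reads of EEF1A1 plus EEF1A2, had been seen in these same libraries. Member values below are therefore a description of that contrast, and no p-value is printed for them. Where it is said whether a member passed a threshold, that is description too, and nothing is read from it.

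RNA came from PC-3, an established human prostate cancer line. One group carried a short hairpin RNA against CdGAP, a GTPase-activating protein encoded by ARHGAP31 (shCdGAP, 3 samples), and the other carried a control hairpin (shCon, 3 samples). No further agent or time point separates the groups in the labels. The methods describe puromycin selection and growth of single-cell clones for the CdGAP-depleted PC-3 cells, without naming the clone sequenced, and do not state the same step for the control cells, so CdGAP depletion and a difference between clones cannot be told apart. In RNA from whole cultures, fewer cells expressing a gene and less RNA per cell cannot be told apart either. The methods call the 3 samples of a group independent without saying whether they were separate cultures, so p-values measure the spread between these samples, which may be technical.

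In protein synthesis, eEF1A bound to GTP carries each aminoacylated tRNA to the ribosome. The eEF1B complex, built from the products of EEF1B2, EEF1D and EEF1G, recharges eEF1A with GTP. eEF2 then moves the ribosome along the mRNA, and eEF2 kinase, the product of EEF2K, slows this step by phosphorylating eEF2. EEF1A1 is used by most tissues and by dividing cells, whereas EEF1A2 is the usual form in neurons and in heart and skeletal muscle, and it has been studied as an oncogene in several carcinomas.

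Some of the members have a sequence feature in common that the selection did not use. Many mRNAs of the translation machinery begin with a 5′ terminal oligopyrimidine tract. This is a short run of C and T at the transcription start through which their translation responds to mTOR. The start regions of the matched members are shown because they separate EEF1A1, EEF2 and the downstream start of EEF1B2 from the kinase gene. The sequences are from RefSeq on GRCh38.p14, each 45 bases before the start and 16 bases from it on, 5′ to 3′ on the strand of the gene. Capitals mark the longest unbroken run of C and T that reaches within 5 bases of the start. The table of start regions matched 5 of the 7 members, all but EEF1A2 and EEF1D.
EEF1A1, chr6:73521017-73521077, minus strand: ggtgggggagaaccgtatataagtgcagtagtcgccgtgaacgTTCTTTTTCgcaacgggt
EEF2, chr19:3985448-3985508, minus strand: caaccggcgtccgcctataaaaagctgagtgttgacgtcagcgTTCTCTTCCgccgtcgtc
EEF1B2, downstream start, chr2:206159850-206159910, plus strand: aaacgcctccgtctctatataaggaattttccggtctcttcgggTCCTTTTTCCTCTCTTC
EEF1B2, upstream start, chr2:206159564-206159624, plus strand: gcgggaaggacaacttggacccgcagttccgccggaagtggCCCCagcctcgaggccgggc
EEF1G, chr11:62573876-62573936, minus strand: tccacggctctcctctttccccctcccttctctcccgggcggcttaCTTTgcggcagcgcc
EEF2K, chr16:22206233-22206293, plus strand: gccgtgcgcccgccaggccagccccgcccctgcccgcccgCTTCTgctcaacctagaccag

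The run measured 9 bases in EEF1A1 and in EEF2, and 17 bases at the downstream start of EEF1B2. It measured 5 bases in EEF2K and 4 bases in EEF1G and at the upstream start of EEF1B2. A run of 8 bases or more was found in 4042 of 35116 start regions of the same length (11.5%). Taking the longest run of each gene, 3840 of 27305 genes (14.1%) and 52 of 62 matched cytosolic ribosomal protein genes (83.9%) had one. Runs were measured alike in all regions and could begin before the annotated start. Those of EEF1A1, EEF2 and the downstream start of EEF1B2 did, so the part from the start on is shorter than the length given. In EEF1A1 and EEF2 that part is under 8 bases. A run of these letters is a description of the window and not a measured tract of an mRNA.

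Libraries held between 33182796 and 43154039 counted reads. ARHGAP31 (chromosome 3), the targeted gene, lay between 26.4 and 27.1 CPM (counts scaled to library size after TMM normalization) in shCdGAP libraries and between 58.2 and 60.6 CPM in shCon libraries. The log2 fold change, always shCdGAP over shCon, was -1.14 with a standard error (SE) of 0.0409 (Benjamini-Hochberg adjusted p = 8.75e-08 in the quasi-likelihood F test of edgeR, as for every adjusted p below). Of the markers for the line, KRT8 (193 and 185 CPM in shCdGAP and shCon), KRT18 (270 and 253 CPM) and VIM (1149 and 628 CPM) were present in both groups. KLK3, which encodes prostate-specific antigen and is listed as low or absent in this line, had no read in any library. PTPRC, a leukocyte marker, had at most 1 read. The fibroblast collagen gene COL1A1 stood at 57.1 CPM in shCdGAP and 18.0 CPM in shCon cells, and its part in the member values was not tested.

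EEF1A2 (ENSG00000101210, chromosome 20 from 63488013 to 63499315, minus strand) was a minor transcript in control cells and was among the abundant ones in CdGAP-depleted cells. The counted reads were 10782, 11382 and 8805 in shCdGAP replicates 1 to 3. In shCon replicates 1 to 3 they were 672, 661 and 435. Every shCdGAP library was far above every shCon library, and within a group the libraries lay close together. Scaled to library size, the level was 261 ± 4.87 CPM in shCdGAP and 15.0 ± 1.55 CPM in shCon (SD, n = 3 each). The log2 fold change was 4.12 (SE 0.0693), or 17.4-fold. By mean CPM, the gene moved from position 8859 to position 646 among the 16439 tested genes.

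EEF1A1 (ENSG00000156508, chromosome 6 from 73515750 to 73523797, minus strand) was lower in CdGAP-depleted cells by a far smaller proportion, from a far higher level. Its reads numbered 114591, 128645 and 95779 in the shCdGAP replicates. In the shCon replicates they numbered 146470, 150106 and 116624. On the CPM scale the groups did not overlap, with 2787 to 2954 in shCdGAP and 3491 to 3557 in shCon. The means were 2856 ± 87.2 and 3526 ± 32.8 CPM (SD, n = 3 each), giving a log2 difference of -0.30 (SE 0.0349). That is a level 19.0% lower, and the gene went from position 4 to position 7 by mean CPM.

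The genes for the exchange factor that reloads eEF1A with GTP did not share 1 direction. EEF1B2 (ENSG00000114942, chromosome 2, bases 206159585 to 206162928), which encodes the beta subunit, had 9188, 9747 and 7862 reads in shCdGAP and 12856, 13336 and 10322 in shCon. Its level was 226 ± 2.49 CPM in shCdGAP and 312 ± 4.82 CPM in shCon (SD, n = 3 each), giving a log2 difference of -0.46 (SE 0.0319). EEF1D (ENSG00000104529, chromosome 8 from 143579697 to 143599541), which encodes the delta subunit, was slightly higher instead. Its reads numbered 15848, 16243 and 13566 in shCdGAP and 14336, 14940 and 11111 in shCon. At 386 ± 11.6 against 344 ± 9.06 CPM (SD, n = 3 each), its log2 fold change was 0.17 (SE 0.0378). The 2 subunit genes thus parted, and EEF1D reads per EEF1B2 read were 1.71 ± 0.0339 in shCdGAP and 1.10 ± 0.0240 in shCon (SD, n = 3 each).

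EEF1G (ENSG00000254772, chromosome 11 from 62559601 to 62574086), the gamma subunit gene, could not be measured in these tables. It had 1 read in shCdGAP replicate 2 and none in the other libraries. In the annotation used for counting, 2714 of its 2716 exonic bases (99.9%) are shared with ENSG00000255508 on the same strand, and reads that fit overlapping genes were left uncounted. ENSG00000255508 itself had 9 to 17 reads per library. The count of EEF1G therefore says nothing about its expression.

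EEF2 and EEF2K, the translocation factor and its inhibitory kinase, were both lower in CdGAP-depleted cells. EEF2 (ENSG00000167658, chromosome 19, bases 3976056 to 3985469) had 105317, 118501 and 88043 reads in shCdGAP and 126061, 129643 and 101015 in shCon. Its level was 2627 ± 83.5 CPM in shCdGAP and 3045 ± 35.2 CPM in shCon (SD, n = 3 each), giving a log2 difference of -0.21 (SE 0.0355), and its position by mean CPM went from 7 to 12. EEF2K (ENSG00000103319, chromosome 16, bases 22206282 to 22288732), far below EEF2 in reads, had 1807, 2049 and 1529 reads in shCdGAP and 2660, 2582 and 2099 in shCon. At 45.4 ± 1.45 against 62.7 ± 1.32 CPM (SD, n = 3 each), its log2 fold change was -0.47 (SE 0.0418). The proportional difference was larger for the kinase gene than for the factor gene, and EEF2K reads per 1000 EEF2 reads were 17.3 ± 0.106 in shCdGAP and 20.6 ± 0.613 in shCon (SD, n = 3 each).

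In all, the groups did not overlap for any of the 6 tested members, and the same held for 67.1% of all tested genes. All 6 had an adjusted p under 0.01 in the same test, 2 of them higher and 4 lower in shCdGAP, where 46.2% of all tested genes passed (24.1% higher and 22.0% lower). EEF1D was the member nearest the threshold. It no longer passed when shCdGAP replicate 1 or 3 or any shCon replicate was left out. With the study's additional limit of an absolute log2 fold change above 1, only EEF1A2 of the 6 was called, where 12.8% of all tested genes were called (8.56% higher and 4.19% lower). Because these genes were selected on this contrast, nothing is read from the shares or from a member passing or not passing.

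**Figure D1:**
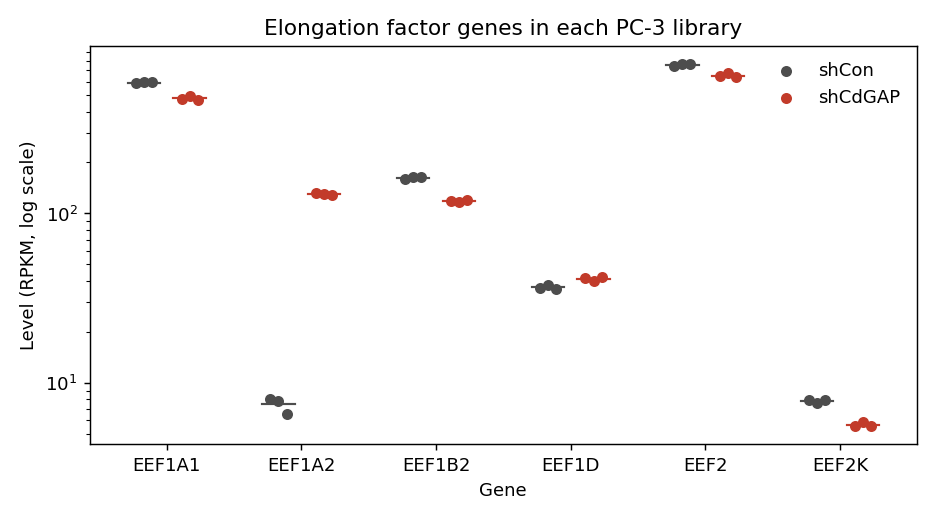
Level of the 6 measurable genes in each of the 6 libraries, as RPKM, reads scaled to deposited gene length and library size (log axis). Points are single libraries and bars are group means. EEF1A2 lies at the level of EEF2K in shCon (7.45 and 7.82 RPKM) and, on this length, near that of EEF1B2 in shCdGAP (130 and 118 RPKM), while the other genes differ by small steps.

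Levels of different genes can be set side by side only per length, here as RPKM (CPM per kilobase) on the exonic length given in the count tables. In shCon cells the order was EEF2 (756 ± 8.75 RPKM), EEF1A1 (593 ± 5.52), EEF1B2 (163 ± 2.52), EEF1D (36.6 ± 0.965), EEF2K (7.82 ± 0.165) and EEF1A2 (7.45 ± 0.775; SD, n = 3 each). The last pair did not differ beyond its spread, since EEF2K ranged from 7.63 to 7.92 RPKM and EEF1A2 from 6.56 to 7.99 RPKM. In shCdGAP cells the order was EEF2 (652 ± 20.7 RPKM), EEF1A1 (480 ± 14.7), EEF1A2 (130 ± 2.43), EEF1B2 (118 ± 1.30), EEF1D (41.1 ± 1.24) and EEF2K (5.66 ± 0.181; SD, n = 3 each). There no neighbours overlapped, and EEF1A2 stood next above EEF1B2. These orders turned in part with the length used, which was not measured in these cells. With the length of 1 principal transcript per gene, EEF1A1 stood above EEF2 in shCon (1004 ± 9.45 and 964 ± 11.1 RPKM), while in shCdGAP their ranges overlapped (813 ± 24.9 and 832 ± 26.4 RPKM; SD, n = 3 each). EEF1A2 in shCdGAP, at 147 ± 2.74 RPKM, then stood below EEF1D (185 ± 5.57) and EEF1B2 (280 ± 3.10; SD, n = 3 each). With coding lengths EEF1A1 was above EEF2 in both groups, EEF1A2 in shCdGAP was again below EEF1D and EEF1B2, and EEF1A2 in shCon was below EEF2K without overlap. With each of the 3 lengths EEF1A2 had the lowest mean in shCon and stood above EEF2K in shCdGAP. With principal transcripts, as with deposited lengths, its shCon range overlapped that of EEF2K (7.43 to 9.04 and 8.27 to 8.59 RPKM with principal transcripts).

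The balance between the forms moved from almost exclusively EEF1A1 towards a mixture in which EEF1A1 still prevailed. EEF1A2 made up 8.60%, 8.13% and 8.42% of the EEF1A1 plus EEF1A2 reads in shCdGAP replicates 1, 2 and 3. In shCon replicates 1, 2 and 3 it made up 0.457%, 0.438% and 0.372%. The mean share was 8.38 ± 0.238% against 0.422 ± 0.0448% (SD, n = 3 each), a difference of 7.96 percentage points. On a log2 scale the ratio of EEF1A2 to EEF1A1 reads was -3.45 ± 0.0448 in shCdGAP and -7.89 ± 0.158 in shCon (SD, n = 3 each). The difference of 4.44 is a ratio within each library and does not depend on library scaling. With 3 libraries against 3, an exact two-sided permutation test could not go below p = 0.1, and none was run because the share was part of the selection.

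**Figure D2:**
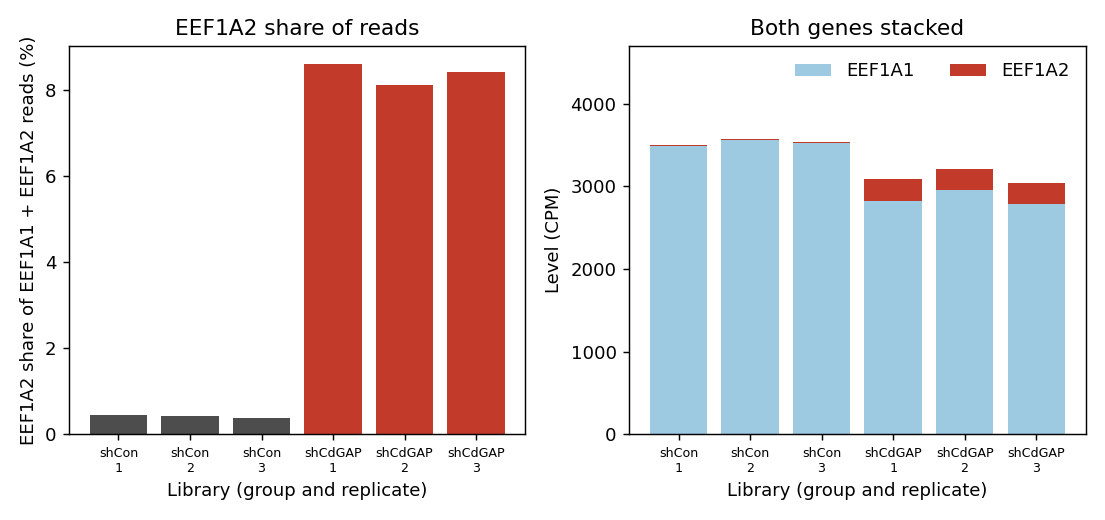
Left, EEF1A2 as a percentage of EEF1A1 plus EEF1A2 reads in each library (bars), between 8.13% and 8.60% in shCdGAP and between 0.372% and 0.457% in shCon. Right, CPM of EEF1A1 and EEF1A2 stacked per library, showing that the EEF1A2 gain is smaller in reads than the EEF1A1 loss.

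How far the gain of one form offset the loss of the other depended on the scale. In CPM, EEF1A1 differed by -670 and EEF1A2 by 246 in shCdGAP, so that their sum was 3117 ± 88.6 against 3541 ± 32.5 (SD, n = 3 each), a difference of -12.0%. Per deposited length, EEF1A1 differed by -113 RPKM and EEF1A2 by 123 RPKM. The summed level was then 607.7, 626.9 and 596.2 RPKM in the shCdGAP replicates and 595.0, 605.8 and 600.0 RPKM in the shCon replicates, and the groups overlapped. The mean difference of the sum was 1.67% upwards on that scale. The split follows from the length used for EEF1A1, which counts as 5948 bases in the tables, all annotated exons joined, against 2006 bases for EEF1A2. With the length of 1 principal transcript per gene, 3512 bases for EEF1A1 and 1773 for EEF1A2, the sum in shCdGAP differed by -5.14%. With coding lengths of 1389 and 1392 bases it differed by -12.0%. No length was measured in these cells, so the direction of the summed EEF1A level remains undetermined, whereas each scale gave the higher EEF1A2 share in shCdGAP. That share was 21.3 ± 0.520% against 1.24 ± 0.131% (SD, n = 3 each) with deposited lengths, and 15.3% against 0.833% with principal transcripts.

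Ratios to the other members were read within each library. The 2 EEF1A genes together reached 0.936 ± 0.00730 of the EEF2 level in shCdGAP and 0.794 ± 0.00353 in shCon (ratio of RPKM on deposited lengths, SD, n = 3 each). The size of this difference depended on the length, being 1.16 ± 0.00673 against 1.05 ± 0.00406 with principal transcripts and 2.20 ± 0.00809 against 2.16 ± 0.00744 with coding lengths (SD, n = 3 each). In reads with no length, the ratio was 1.19 ± 0.00452 in shCdGAP and 1.16 ± 0.00420 in shCon (SD, n = 3 each), a difference of 2.03%. In reads, EEF1A1 alone per EEF2 read was 1.09 ± 0.00137 and 1.16 ± 0.00369. EEF1B2 reads per 1000 EEF1A reads were 72.7 ± 2.83 in shCdGAP and 88.0 ± 0.563 in shCon (SD, n = 3 each). Across all 6 measurable genes, the share of a library's reads was 0.645 ± 0.0163% in shCdGAP and 0.724 ± 0.00741% in shCon (SD, n = 3 each).

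The 2 EEF1A genes are similar in sequence but were separable by reads. Their coding sequences are 78.2% identical and the longest stretch shared by the principal transcripts is 20 bases, with none of the 1724 windows of 50 bases of the EEF1A2 transcript present in EEF1A1. EEF1A1 has many processed pseudogenes, and 1263 of its 1340 coding windows of 50 bases (94.2%) occur exactly in at least 1 of 49 EEF1A1P loci. Over the whole transcript this held for 36.6% of 3463 windows, and for no window of EEF1A2. Reads with several alignments were not counted, so reads lying wholly in duplicated windows can be missing from EEF1A1 and not from EEF1A2. The windows do not model read pairs, of which 1 read can lie outside the duplicated sequence. The number of missing reads is not known, and the printed EEF1A2 shares are shares of counted reads. With any missing EEF1A1 reads added, these shares would be lower.

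The reads that did land on EEF1A1P loci were few. They numbered 1134, 1322 and 899 in the shCdGAP replicates and 1443, 2034 and 1134 in the shCon replicates. This was 0.985 ± 0.0449% and 1.10 ± 0.217% of the EEF1A1 reads (SD, n = 3 each), with shCon replicate 2 the highest. Adding them to EEF1A1 gave an EEF1A2 share of 8.31% in shCdGAP and 0.418% in shCon. Of 73 pseudogene loci of EEF1A1, EEF1B2, EEF1D and EEF1G, 15 were tested, and none passed an adjusted p of 0.01 in the same test (median log2 fold change -0.47). Overlap with other genes on the same strand affected 16.4% of the exonic bases of EEF1B2, 0.695% of those of EEF2 and none of those of EEF1A1, EEF1A2, EEF1D and EEF2K.

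Other cytosolic elongation factors and the enzymes that modify them mostly fell or did not pass. Of 24 such genes tested, 3 rose (12.5%) and 9 fell (37.5%) at an adjusted p under 0.01, beside 24.1% and 22.0% of all tested genes. Their median log2 fold change was -0.12 beside 0.01 over all tested genes. None of the 24 passed the fold limit of the study. The rising genes were GTPBP2, a ribosome rescue GTPase (log2 fold change 0.31, adjusted p = 4.22e-04), EEF1AKMT2, a lysine methyltransferase of eEF1A (0.30, adjusted p = 0.00313), and EIF5A2 (0.22, adjusted p = 0.00923). Without shCdGAP replicate 2, 6 genes of the list rose, and without any one of the shCon replicates 1 did. EEF1AKMT2 and EIF5A2 did not pass without shCdGAP replicate 1 or without any one of the shCon replicates, with adjusted p of up to 0.0215 and 0.0518. EIF5A2 also did not pass with DESeq2. EIF5A2 is the less common form of eIF5A, the factor that relieves stalled ribosomes, and the common form EIF5A fell (log2 fold change -0.41, SE 0.0321, adjusted p = 8.03e-06). EIF5A was chosen after its values were seen.

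The largest fall among the 24 genes was in TPT1, whose product TCTP binds eEF1A. TPT1 (chromosome 13) stood at 648 ± 51.6 CPM in shCdGAP and 1275 ± 11.1 CPM in shCon (SD, n = 3 each). The groups were far apart, with a log2 fold change of -0.98 (SE 0.0544, adjusted p = 1.02e-06). DPH7 on chromosome 9, which takes part in the diphthamide modification of eEF2, fell by 0.85 on the log2 scale (adjusted p = 3.26e-05). The other listed diphthamide genes, DPH1, DPH2, DPH3, DPH5, DPH6 and DNAJC24, did not pass. HBS1L, a relative of eEF1A that acts on stalled ribosomes, fell by 0.45 (adjusted p = 2.43e-05).

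**Figure D3:**
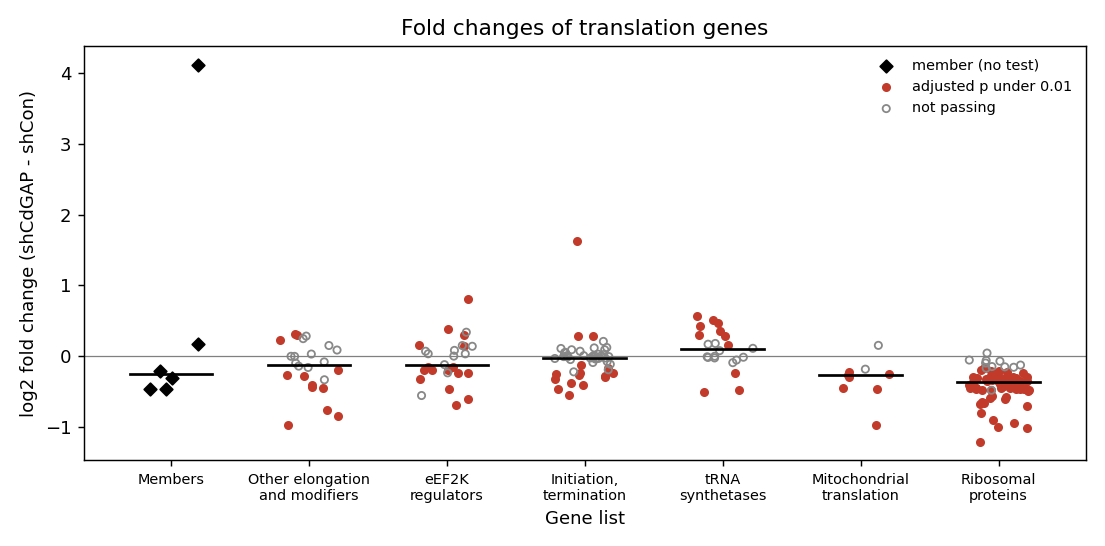
Log2 fold change (shCdGAP over shCon) of each tested gene in the translation lists, 1 strip per list, with the list median as a bar. Black diamonds are the 6 measurable members, filled circles genes with an adjusted p under 0.01 and open circles genes that did not pass. Most ribosomal protein genes lie below 0 (median -0.37), while EEF1A2 stands apart from every cytosolic translation list at 4.12.

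Genes for regulators of eEF2 kinase, including the mTOR complex, AMPK, S6 and p90 ribosomal S6 kinases and their upstream inputs, moved in both directions. Of 27 tested, 5 rose (18.5%) and 11 fell (40.7%), beside 24.1% and 22.0% of all tested genes. Their median log2 fold change was -0.12, and none passed the fold limit. SESN2, a stress-induced inhibitor of mTORC1, rose by a log2 fold change of 0.81 (adjusted p = 7.90e-05). MTOR rose by 0.29 (adjusted p = 0.00970). Among the falling genes were DEPTOR, an mTOR inhibitor (-0.69, adjusted p = 0.00122), RPS6KA3, a p90 kinase (-0.61, adjusted p = 8.80e-06), and TSC1 on chromosome 9, part of the complex that restrains mTORC1 (-0.46, adjusted p = 1.99e-04). The rising count rested on single libraries. It was 1 without shCdGAP replicate 1 or any of the shCon replicates, and 2 without shCdGAP replicate 3, and MTOR did not pass in these fits (adjusted p of up to 0.0495). The falling count was 7 without shCdGAP replicate 1 or without shCon replicate 3.

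Initiation and termination factor genes gave 3 that rose (6.25%) and 13 that fell (27.1%) among 48 tested. The shares over all tested genes were 24.1% and 22.0%, so the falling share was near that of all genes. The median log2 fold change of the list was -0.03. EIF4A1, 1 of the 48, did not pass, but 48.6% of its exonic bases are shared with other genes on the same strand. Its reads there were left uncounted as for EEF1G, so its level of 3.86 CPM in shCdGAP and 3.83 CPM in shCon may be too low. EIF4E3, an atypical cap-binding protein, was the one that passed the fold limit. It had 16.2 ± 3.40 CPM in shCdGAP and 5.21 ± 0.284 CPM in shCon (SD, n = 3 each), giving a log2 difference of 1.63 (adjusted p = 2.13e-05). EIF2B3, a subunit of the eIF2 exchange factor, rose by 0.29 (adjusted p = 0.00325) and DENR, a recycling factor, by 0.28 (adjusted p = 7.33e-04). The strongest falls were in EIF3L (-0.55, adjusted p = 1.60e-05), EIF4B (-0.47, adjusted p = 3.05e-05) and EIF1B (-0.41, adjusted p = 1.17e-04). Without shCdGAP replicate 2, 9 genes rose. EIF2B3 was lost without shCdGAP replicate 1 or 3 and without each shCon replicate, with an adjusted p of up to 0.0263.

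The tRNA synthetase genes, whose products make the aminoacylated tRNAs that eEF1A carries, moved in both directions. Of 22 tested, 8 rose (36.4%) and 3 fell (13.6%), beside 24.1% and 22.0% of all tested genes, around a median log2 fold change of 0.09, and none passed the fold limit. The rising count was between 6 and 12 with single libraries left out. GARS1 (0.56, adjusted p = 1.07e-05), AARS1 (0.51, adjusted p = 5.58e-05) and NARS1 (0.47, adjusted p = 4.33e-05) rose most among those of sufficient level. Among the falling genes were IARS1 on chromosome 9 (-0.48, adjusted p = 4.41e-06) and KARS1 (-0.23, adjusted p = 2.95e-04).

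Mitochondrial translation factor genes mostly fell, with 7 of 9 tested genes lower (77.8%) and none higher, beside 22.0% and 24.1% of all tested genes. Their median log2 fold change was -0.27. TUFM, the mitochondrial counterpart of eEF1A, stood at 229 ± 3.21 CPM in shCdGAP and 311 ± 9.68 CPM in shCon (SD, n = 3 each). Its log2 fold change was -0.45 (adjusted p = 8.91e-06). MRRF on chromosome 9, the mitochondrial ribosome recycling factor, fell by 0.98 on the log2 scale (adjusted p = 3.30e-07), and GFM1, the counterpart of eEF2, fell by 0.29 (adjusted p = 3.20e-04).

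Cytosolic ribosomal protein genes mostly fell. Of 78 tested, 67 fell and none rose, beside 22.0% of all tested genes lower and 24.1% higher, and their median log2 fold change was -0.37. That median lay between the log2 fold changes of EEF1A1 (-0.30) and EEF1B2 (-0.46). The lowest were RPL32 (-1.21, adjusted p = 7.93e-07) and RPL14 (-1.01, adjusted p = 2.87e-07), both on chromosome 3, and RPL7A on chromosome 9 (-0.999, adjusted p = 3.95e-07). Leaving out any single library kept the number of falling genes between 63 and 76.

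The genes whose pattern over the 6 libraries was nearest to those of the eEF1A forms were found by the root mean square distance of log2 CPM, each gene centred on its own mean, over 10276 candidate genes. Nearest to EEF1A2 were the bradykinin receptor genes BDKRB2 (distance 0.240) and BDKRB1 (0.284) and the actin regulator gene MTSS1 (0.281). BDKRB2 (chromosome 14) went from 10.4 CPM in shCon to 160 CPM in shCdGAP, a log2 fold change of 3.93, with 3.88 for MTSS1. Nearest to EEF1A1 were NACA, which encodes a nascent chain binding protein (0.00812), the ribosomal protein gene RPL19 (0.0125) and the dUTPase gene DUT (0.0126). NACA had 484 CPM in shCdGAP and 599 CPM in shCon, a log2 fold change of -0.31. The measure takes in the size of the group difference as well as the spread within groups.

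Around EEF1A2 on chromosome 20 most genes did not move with it. Within 1000 kb of its start coordinate, 44 of 111 genes were tested. Of these, 8 rose (18.2%), 8 fell (18.2%) and 28 did not pass, where 24.1% of all tested genes rose and 22.0% fell. The median log2 fold change near EEF1A2 was -0.10. The falling count was 15 without shCdGAP replicate 2, and the rising count was 5 without shCon replicate 1 and 4 without shCon replicate 2. Apart from EEF1A2 itself, 3 of the 44 passed the fold limit, all higher, where 8.56% of all tested genes were called higher.

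HELZ2, a helicase gene 70.1 kb away, had 105 ± 16.5 CPM in shCdGAP and 41.6 ± 1.03 CPM in shCon (SD, n = 3 each), giving a log2 difference of 1.34 (adjusted p = 3.09e-05). STMN3, a stathmin gene 151.7 kb away, rose by 1.29 (adjusted p = 9.50e-05) from 2.52 to 6.21 CPM.

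The stretch was mixed rather than uniformly raised. PPDPF, 32.7 kb from EEF1A2, had a log2 fold change of 0.05 (adjusted p = 0.450), PTK6, a tyrosine kinase gene at 40.0 kb, rose by 0.78 (adjusted p = 1.53e-04), and GMEB2 at 99.6 kb fell by 0.67 (adjusted p = 1.24e-05). PPDPF, PTK6 and GMEB2 were named after their values were seen. PTK6, HELZ2, STMN3 and GMEB2 were among 9 tested neighbours within 200 kb.

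**Figure D4:**
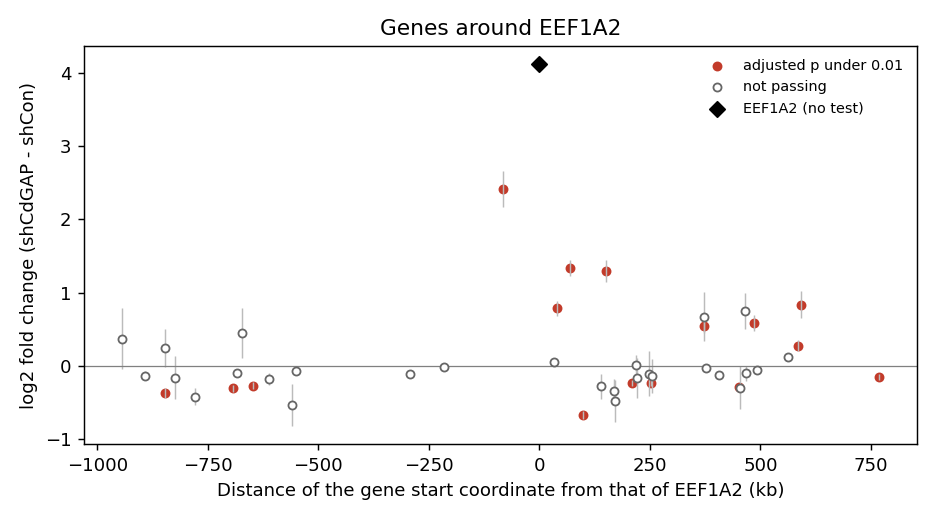
Log2 fold change (shCdGAP over shCon) of tested genes within 1000 kb of EEF1A2 against the distance of their start coordinate from that of EEF1A2 in kb, with standard errors from edgeR as bars. The black diamond is EEF1A2 at 4.12, filled circles are genes with an adjusted p under 0.01 and open circles are the others. The median is -0.10, and HELZ2 and STMN3 are among the genes above 1.

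Since EEF1A2 is the usual form in neurons and muscle, 18 marker genes of these cells were read beside it. Of these, 9 had under 10 reads in all 6 libraries, and 3 (CHGA, MYH7 and MYOD1) had no read at all. SNAP25, STMN2 and RBFOX3, which define neurons, had at most 2 reads in any library. The summed level of the list was 218 to 292 CPM in shCdGAP and 144 to 149 CPM in shCon libraries.

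Of the 9 markers tested, 6 rose (66.7%) and none fell, beside 24.1% and 22.0% of all tested genes. Their median log2 fold change was 1.26, and 4 passed the fold limit, where 8.56% of all tested genes were called higher. GAP43, a growth cone gene, had 193, 311 and 143 reads in shCdGAP and 2, 4 and 2 in shCon, a log2 fold change of 6.24 (adjusted p = 1.58e-06). SYT1, a synaptic vesicle gene, rose by 1.26 (adjusted p = 1.21e-05), TUBB3 by 1.45 (adjusted p = 7.59e-06), TNNT1 by 0.59 (adjusted p = 0.00183) and ENO2 by 0.58 (adjusted p = 0.00935). SYP had a log2 fold change of 0.66 that did not pass (adjusted p = 0.0274). The call of ENO2 was lost without shCdGAP replicate 1 and without each shCon replicate, and its adjusted p reached 0.0891 with no filter on low counts. GAP43 and TUBB3 were chosen after their values were seen. The part of these genes in the EEF1A2 level was not tested.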

How the data were processed

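RNA-seq of 3 shCdGAP and 3 shCon PC-3 samples was used, with groups from the sample titles. The counts of reads per gene were deposited unnormalized by the authors, who made them with STAR 2.5.1b on GRCh38 and featureCounts with Ensembl annotation. Per the file headers, featureCounts 1.6.0 counted strand-specific read pairs and left out multiply aligned and ambiguous reads, while the submitters' processing notes name version 1.4.6 and the methods a single-read kit. Leaving out multiply aligned reads can lower the counts of EEF1A1, and same-strand overlap removes those of EEF1G.

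From these counts, edgeR 4.0.16 in R 4.3.3 (filterByExpr, TMM, robust quasi-likelihood F test, Benjamini-Hochberg adjustment over 16439 genes) gave log2 fold changes and calls, without pairing. Standard errors were derived from the log2 fold change and F (absolute change over root F). CPM and RPKM were computed on TMM-adjusted library sizes, RPKM with the deposited exonic length. Total counted reads before adjustment were 33182796 to 43154039 per library. A gene passed at an adjusted p under 0.01. No depth-based interval is given, since SDs over 3 libraries already hold counting error. Sequence comparisons used GENCODE 44 transcripts and RefSeq start regions with Biopython 1.88.

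Members and lists were chosen with earlier results of these data known. Named genes are all members, up to 3 genes per list and direction with the largest absolute log2 fold change among those passing at a mean log2 CPM of 3 or more, called neighbours of EEF1A2 at 1 or more, and the 3 genes most like each eEF1A gene. Others are marked. Results for some items are not reported here. Alternatives were other scalings, DESeq2 1.42.0, other filters, a replicate block, other gene lengths and each library left out in turn.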

Additional observations from a re-analysis of the deposited data

How the results depend on the processing

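A fold change, share or level difference was labelled kept when it shifted by less than the SD between libraries. A count was labelled kept within a fixed ratio, so 12 rising tRNA synthetase genes against 8 in the main fit still was. Of 289 alternative values, 260 were kept in this sense, 27 moved further and 2 changed direction. The 2 were the difference in the summed EEF1A level per length, 1.67% higher in shCdGAP with deposited lengths, -5.14% with principal transcript lengths and -12.0% with coding lengths, because the lengths of EEF1A1 differ. The EEF1A2 share per length was 21.3% (deposited) or 15.3% (principal transcript) in shCdGAP and 1.24% or 0.833% in shCon. The length alternatives were chosen after seeing the data. With scaling to library size only, EEF1B2 had a log2 fold change of -0.44, 5 elongation genes rose and 6 initiation and termination genes rose. With upper-quartile scaling 5 initiation and termination genes rose, and with no filter on low counts 5 elongation genes rose. The cause of these moves was not tested.

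With single libraries left out, log2 fold changes ran from 4.03 to 4.16 for EEF1A2, -0.34 to -0.30 for EEF1A1, -0.49 to -0.46 for EEF1B2, 0.14 to 0.18 for EEF1D, -0.25 to -0.20 for EEF2 and -0.50 to -0.46 for EEF2K. The EEF1A2 share ran from 8.27% to 8.51% in shCdGAP and from 0.405% to 0.448% in shCon, and the log2 ratio change from 4.35 to 4.50. Rising and falling counts ran from 1 to 6 and 8 to 10 for elongation, 1 to 7 and 7 to 14 for regulators of eEF2 kinase, 2 to 9 and 11 to 16 for initiation and termination, and 4 to 8 and 6 to 15 near EEF1A2. For tRNA synthetases they were 6 to 12 and 3 to 4. Falling counts were 5 to 8 for mitochondrial factors and 63 to 76 for ribosomal proteins, and rising neuron and muscle markers numbered 5 to 8. Without shCdGAP replicate 2, 10035 genes passed in all, where 7587 did with all libraries. Of 44 named genes, 36 passed under every alternative, 8 were lost in at least 1, and none changed direction.

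The same replicate numbers did not pair the samples, as the correlations of deviations of same-numbered libraries were 0.0306, 0.0499 and 0.0469, although each library correlated best with its own number, a hint from the data and not the design. With the replicate number as a block, 7229 genes passed, EEF1A2 had a log2 fold change of 4.13 and EEF1A1 of -0.30, the ratio change was 4.44, and EEF1D and EIF5A2 did not pass 0.01.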
